A study of Mus musculus with 6 samples.

Results

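The Hox genes encode homeodomain transcription factors that lie in 4 clusters, Hoxa to Hoxd, on chromosomes 6, 11, 15 and 2 of the mouse. Within a cluster the genes are numbered by paralog group, and genes with low numbers are generally switched on earlier and further forward in the embryo than genes with high numbers. In the gut their nested domains in mesenchyme, endoderm and neural crest mark position from the foregut to the cloaca, and their proteins bind DNA together with Meis and Pbx cofactors. The genes described here are the 38 lines of the deposited table, of 23233 in all, whose symbol is on a list of Hox genes taken by name and not by any measured value. The authors' test covered 33 of the 38, against 13430 lines in the whole table.

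Guts were dissected at E10.5 from mouse embryos homozygous for a Ret null allele (3 samples) and from wildtype embryos (3 samples). The strain of all 6 is labelled C57BL/6J, and the series text calls the embryos male. Ret is the receptor through which GDNF acts on the neural crest cells that build the nervous system of the gut. Neither the design of the null allele, nor the number of embryos per sample, nor the ends of the dissected segment are given in the labels. The table holds 1 FPKM value (fragments counted per unit of transcript length and of mapped fragments) per genotype, which the authors made from the samples of that genotype. No spread between samples can therefore be shown, and read depth is unknown. Fold changes are Ret null over wildtype, and the error after ± is a standard error on the log2 scale, worked back from the authors' statistic. "Rose" and "fell" are used only where the authors' deposited table gives q under 0.05. Its smallest q, 0.000775, applies to every gene said to have changed unless another q is given, and these q-values do not follow from the implied errors. In whole tissue, fewer cells of a type and less RNA per cell cannot be told apart.

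The targeted gene goes with the labels, at 0.0354 FPKM in Ret null gut against 8.80 FPKM in wildtype gut. The sex of the embryos does not fully go with the description as male. Xist, which is transcribed from the inactive X chromosome of female cells, stood at 31.8 FPKM in Ret null gut and 0.136 FPKM in wildtype gut, while the Y-linked genes Ddx3y, Eif2s3y, Uty and Kdm5d all fell, by log2 fold changes between -0.99 and -0.71. With 1 value per genotype, results without any particular sample could not be had, and the part of embryo sex in the values below was not tested. Markers of the gut wall stood high in both genotypes, such as Foxf1 of gut mesenchyme at 124 FPKM in Ret null and 51.3 FPKM in wildtype gut and Epcam of epithelium at 59.1 FPKM in Ret null and 26.4 FPKM in wildtype gut.

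Most Hox genes of paralog groups 9 to 11 fell in Ret null gut, while Hoxd13 and several genes with low numbers in the Hoxa and Hoxb clusters rose. Of the 33 tested Hox genes 14 fell, 8 rose and 11 did not pass. Among all tested genes 8.88% fell, 5.69% rose and 14.6% changed in either direction. Within the range of mean levels covered by the tested Hox genes, 1.29 to 34.0 FPKM, 9.85% of tested genes fell and 5.59% rose. The median log2 fold change of the tested Hox genes was -0.28, beside 0.01 for all tested genes. Among paralogs 9 to 13, 9 of 13 tested members fell and 1 rose (median -0.86). The falls lay in groups 9 to 11, where 9 of 10 tested genes fell. Of the 3 tested genes numbered 12 and 13, 0 fell and 1 rose (median 0.62). Among paralogs 4 to 8, 4 of 15 fell and 4 rose (median 0.16), and among paralogs 1 to 3, 1 of 5 fell and 3 rose (median 0.40). A second p, here called the normal p, reads the authors' statistic off a normal distribution and is adjusted over all tested lines with a statistic. By it 12 Hox genes were lower and 1 (Hoxd13) was higher, beside 2.78% of all tested genes lower, 1.72% higher and 4.5% in either direction. With the authors' deposited table held to q under 0.01, 14 Hox genes were lower and 4 higher, beside 6.1% and 3.72% of all tested genes and 9.81% in either direction. With it relaxed to q under 0.1, 14 were lower and 8 higher, beside 10.6% and 6.96% of all tested genes and 17.5% in either direction. Among calls of at least 1.5-fold, 14 were lower and 2 higher, beside 5.23% and 3.4% of all tested genes and 8.62% in either direction.

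**Figure D1:**
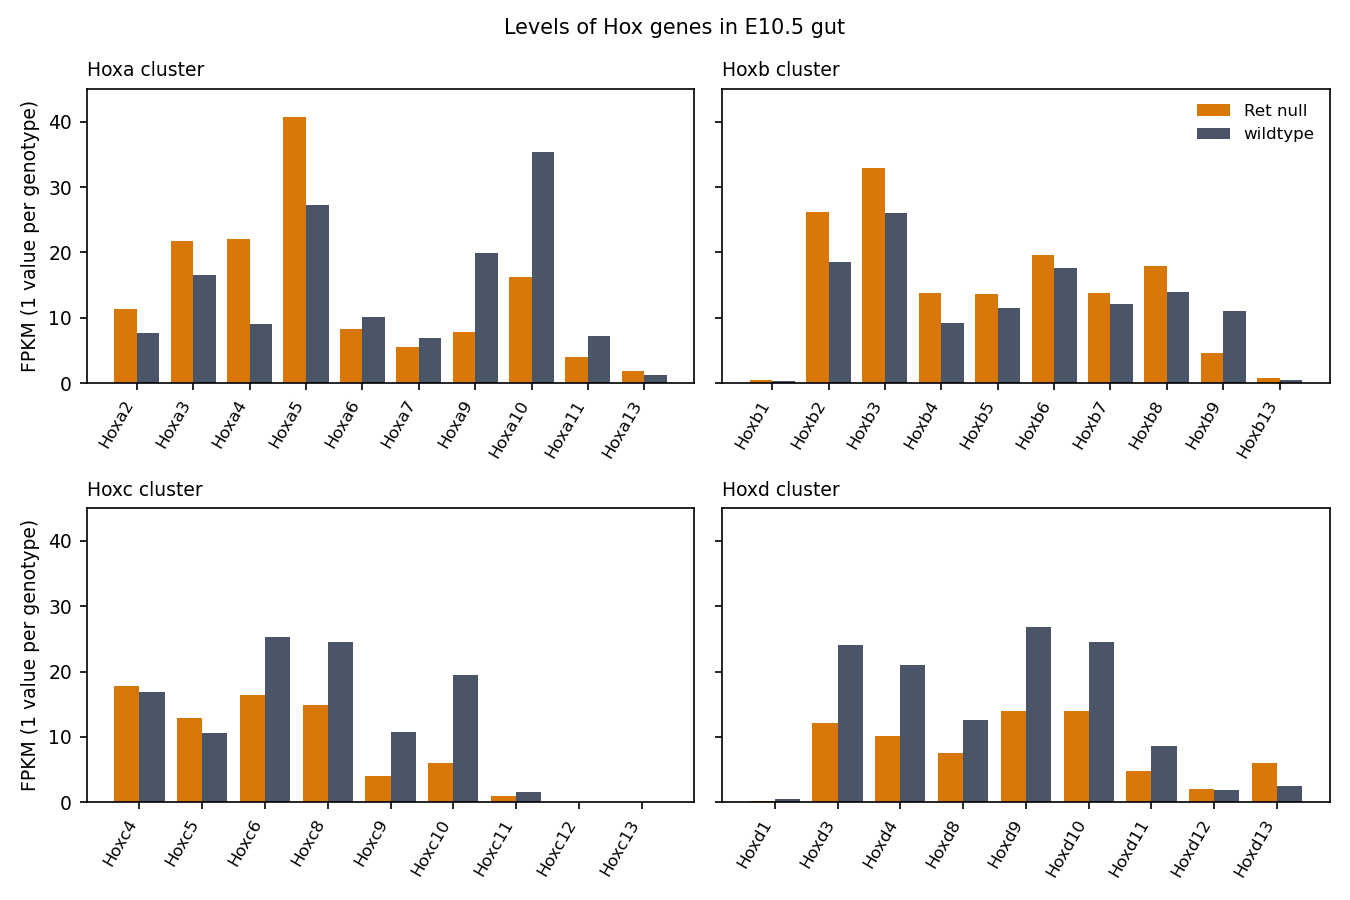
Level of each Hox gene in FPKM in Ret null gut (orange, left bar) and wildtype gut (grey, right bar), by cluster and paralog number, with 1 value per genotype and no error. Hoxa5 has the highest value in Ret null gut, 40.7 FPKM, and Hoxa10 the highest in wildtype gut, 35.4 FPKM, while Hoxc12 and Hoxc13 are listed at 0.

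The order of Hox levels differed between the genotypes. In Ret null gut the highest values were those of Hoxa5 (40.7 FPKM), Hoxb3 (32.96 FPKM), Hoxb2 (26.1 FPKM) and Hoxa4 (22.0 FPKM). In wildtype gut they were those of Hoxa10 (35.4 FPKM), Hoxa5 (27.2 FPKM), Hoxd9 (26.8 FPKM) and Hoxb3 (26.0 FPKM). FPKM is a level per length, so these values can be set side by side between genes, but no spread is available to say which neighbours in the order differ. Summed over members, paralogs 9 to 13 held 87.3 FPKM in Ret null and 171 FPKM in wildtype gut, which is 20.4% of the Hox total in Ret null and 34.7% of it in wildtype. Paralogs 1 to 3 summed to 105 FPKM in Ret null and 93.8 FPKM in wildtype gut. The sums of paralogs 4 to 8 lay close together, at 235 FPKM in Ret null and 229 FPKM in wildtype gut.

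Every paralog of groups 9 and 10 fell. Hoxa9, Hoxb9, Hoxc9 and Hoxd9 act together in setting the forelimb field and the thoracic part of the axis. Hoxa9 stood at 7.76 FPKM in Ret null and 19.9 FPKM in wildtype gut, 2.56-fold lower (-1.36 ± 0.21 on the log2 scale). Hoxb9 stood at 4.65 FPKM in Ret null and 10.98 FPKM in wildtype gut (-1.24 ± 0.25). Hoxc9, which specifies thoracic motor neurons, stood at 4.10 FPKM in Ret null and 10.7 FPKM in wildtype gut (-1.38 ± 0.29). It lies on chromosome 15, 102977032 to 102984444 (mm10). Hoxd9 had the smallest fall of the group, with 13.97 FPKM in Ret null and 26.8 FPKM in wildtype gut (-0.94 ± 0.19).

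Group 10 genes suppress ribs in the lumbar vertebrae and take part in limb patterning. Hoxc10 had the largest fall of any tested Hox gene, to 5.94 FPKM in Ret null gut against 19.4 FPKM in wildtype gut, 3.27-fold lower (-1.71 ± 0.25). Hoxa10, the Hox gene with the highest wildtype level, fell to 16.3 FPKM in Ret null gut against 35.4 FPKM in wildtype gut (-1.12 ± 0.20). Its line spans chromosome 6, 52231197 to 52240854 (mm10), the whole annotated gene. Hoxd10 stood at 14.03 FPKM in Ret null and 24.5 FPKM in wildtype gut (-0.80 ± 0.21). All 7 genes of groups 9 and 10 were also lower by the normal p.

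Group 11 genes pattern the sacral axis and the kidney. Hoxa11 stood at 3.99 FPKM in Ret null and 7.23 FPKM in wildtype gut (-0.86 ± 0.36, q = 0.0042 in the authors' deposited table), and it did not pass with the normal p. Hoxd11 stood at 4.82 FPKM in Ret null and 8.55 FPKM in wildtype gut (-0.83 ± 0.24). Hoxc11 was low in both genotypes, at 1.02 FPKM in Ret null and 1.56 FPKM in wildtype gut (-0.61 ± 0.63), and did not pass.

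Among the last genes of the clusters only Hoxd13 passed. Hoxd13, required in mice for digits, external genitalia and the terminal gut, rose to 5.97 FPKM in Ret null gut against 2.49 FPKM in wildtype gut (1.26 ± 0.33), and it was higher with the normal p too. Hoxa13, its partner in the hindgut and cloaca, stood at 1.85 FPKM in Ret null and 1.20 FPKM in wildtype gut (0.62 ± 0.52), and Hoxd12 at 2.02 FPKM in Ret null and 1.88 FPKM in wildtype gut (0.11 ± 0.41), and neither passed. Hoxb13 had 0.846 FPKM in Ret null and 0.509 FPKM in wildtype gut and was not tested. Hoxc12 and Hoxc13 were listed at 0 in both genotypes. Within the Hoxd cluster the neighbouring genes Hoxd11 and Hoxd13 thus changed in opposite directions, with Hoxd12 between them at a log2 fold change of 0.11.

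**Figure D2:**
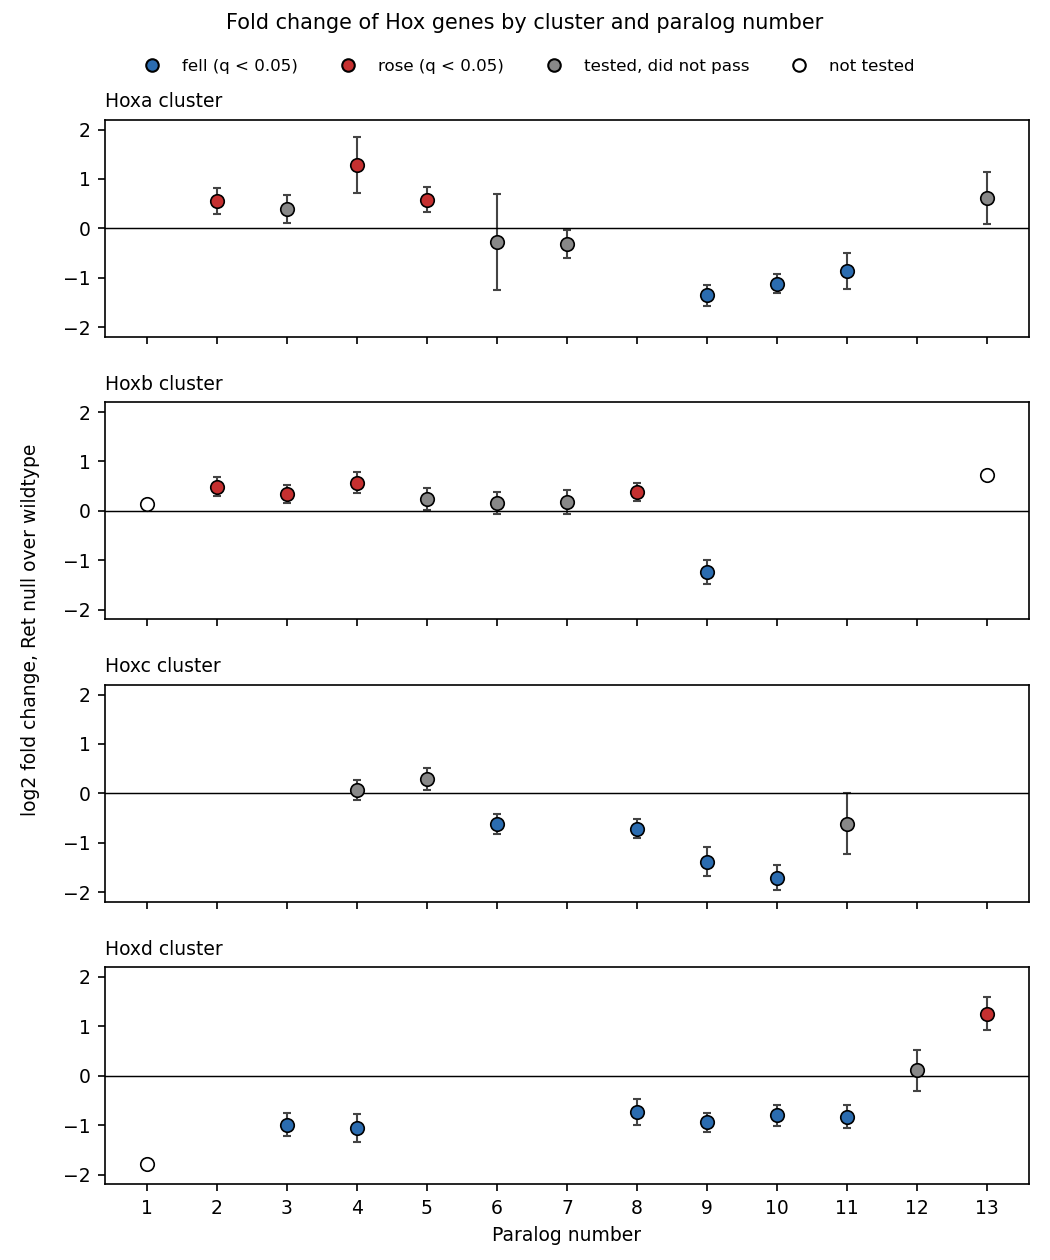
Log2 fold change, Ret null over wildtype, of each Hox gene by paralog number (horizontal axis) in the 4 clusters. Bars are the standard error implied by the authors' statistic, blue points fell, red points rose, grey points did not pass and open points were not tested. All members numbered 9 and 10 lie below 0, and the Hoxb genes numbered 1 to 8 lie above it.

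Counts of rises and falls differed between the clusters. In the Hoxa cluster 3 of 10 tested genes rose, 3 fell and 4 did not pass, and in the Hoxb cluster 4 of 8 rose and 1 fell. In the Hoxc cluster 4 of 7 fell and the other 3 did not pass. In the Hoxd cluster 6 of 8 fell and only Hoxd13 rose. Medians over the tested genes were 0.06 for Hoxa, 0.29 for Hoxb, -0.62 for Hoxc and -0.81 for Hoxd.

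Paralog groups 1 to 3 pattern the hindbrain and the pharyngeal region. Hoxa2, which sets the identity of the second pharyngeal arch, rose to 11.3 FPKM in Ret null gut against 7.71 FPKM in wildtype gut (0.56 ± 0.26, q = 0.0109 in the authors' deposited table). Hoxb2 rose to 26.1 FPKM in Ret null gut against 18.6 FPKM in wildtype gut (0.49 ± 0.20, q = 0.00318 in the authors' deposited table). Hoxb3 rose by less, to 32.96 FPKM in Ret null gut against 26.0 FPKM in wildtype gut (0.34 ± 0.18, q = 0.0117 in the authors' deposited table).

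Hoxa3, needed for thymus and parathyroid, stood at 21.8 FPKM in Ret null and 16.6 FPKM in wildtype gut (0.40 ± 0.28) and did not pass. Hoxd3 fell to 12.1 FPKM in Ret null gut against 24.1 FPKM in wildtype gut (-0.99 ± 0.24). Its paralogs Hoxa3 and Hoxb3 thus had log2 fold changes of the opposite sign. Hoxb1 and Hoxd1 were under 1 FPKM in both genotypes and were not tested.

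Group 4 showed the same split between clusters. Hoxa4, whose overexpression in transgenic mice enlarges the colon, rose to 22.0 FPKM in Ret null gut against 9.03 FPKM in wildtype gut (1.29 ± 0.56, q = 0.0379 in the authors' deposited table). Hoxb4 rose to 13.7 FPKM in Ret null gut against 9.22 FPKM in wildtype gut (0.57 ± 0.21, q = 0.00145 in the authors' deposited table). Hoxd4 fell to 10.1 FPKM in Ret null gut against 21.1 FPKM in wildtype gut (-1.06 ± 0.29). Hoxc4 stood at 17.8 FPKM in Ret null and 16.9 FPKM in wildtype gut (0.07 ± 0.20) and did not pass.

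In groups 5 to 8 most members did not pass. Hoxa5, which patterns lung and stomach mesenchyme, rose to 40.7 FPKM in Ret null gut against 27.2 FPKM in wildtype gut (0.58 ± 0.25, q = 0.00517 in the authors' deposited table). Hoxb8 rose to 18.0 FPKM in Ret null gut against 13.9 FPKM in wildtype gut (0.38 ± 0.19, q = 0.0258 in the authors' deposited table). Hoxc6 fell to 16.4 FPKM in Ret null gut against 25.3 FPKM in wildtype gut (-0.62 ± 0.20), and Hoxc8, a gene of the thoracic axis and brachial motor neurons, to 14.9 FPKM in Ret null gut against 24.5 FPKM in wildtype gut (-0.72 ± 0.19). Hoxd8 fell to 7.54 FPKM in Ret null gut against 12.6 FPKM in wildtype gut (-0.74 ± 0.26, q = 0.00145 in the authors' deposited table), and it did not pass with the normal p. The log2 fold changes of the others that did not pass were -0.28 for Hoxa6, -0.32 for Hoxa7, 0.24 for Hoxb5, 0.16 for Hoxb6, 0.19 for Hoxb7 and 0.29 for Hoxc5. Hoxb5, which binds the Ret gene in enteric crest cells, stood at 13.6 FPKM in Ret null and 11.5 FPKM in wildtype gut.

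Some of these values rest on overlapping loci. Hoxa3, Hoxa4, Hoxa5 and Hoxa6 were given the same deposited span, and so were Hoxd3 and Hoxd4, and Hoxa11 shares its span with its antisense transcript Hoxa11as. Fragments from overlapping transcripts can be divided between such genes, and among these loci Hoxa6 and Hoxa4 had the largest implied errors, 0.97 and 0.56. Without members whose span is shared with another line, 11 Hox genes fell and 6 rose.

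In the Hoxa, Hoxb and Hoxc clusters log2 fold change tended to be lower at higher paralog numbers, and in the Hoxd cluster it did not. Over the 33 tested genes Spearman's rho between paralog number and log2 fold change was -0.35, over the 30 numbered 1 to 11 it was -0.66, and over the 24 of these in the Hoxa, Hoxb and Hoxc clusters it was -0.81. Over all tested genes of each cluster it was -0.39 in Hoxa (10 genes), -0.64 in Hoxb (8 genes), -0.61 in Hoxc (7 genes) and 0.81 in Hoxd (8 genes). The Hoxd value includes Hoxd12 and Hoxd13, whose numbers the range 1 to 11 leaves out, so it is not to be set beside -0.81. In the Hoxd cluster Hoxd3 (-0.99) and Hoxd4 (-1.06) were already as low as Hoxd9 (-0.94). These are descriptions across genes that share the same pair of values per genotype and, in part, overlapping transcripts, and the ranges of numbers were chosen after the values were seen. Of 29 pairs of tested genes that follow each other within a cluster, with missing or untested numbers skipped, 24 had log2 fold changes of the same sign. The sign was counted whether or not the genes passed, and no share was computed for neighbouring genes elsewhere.

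**Figure D3:**
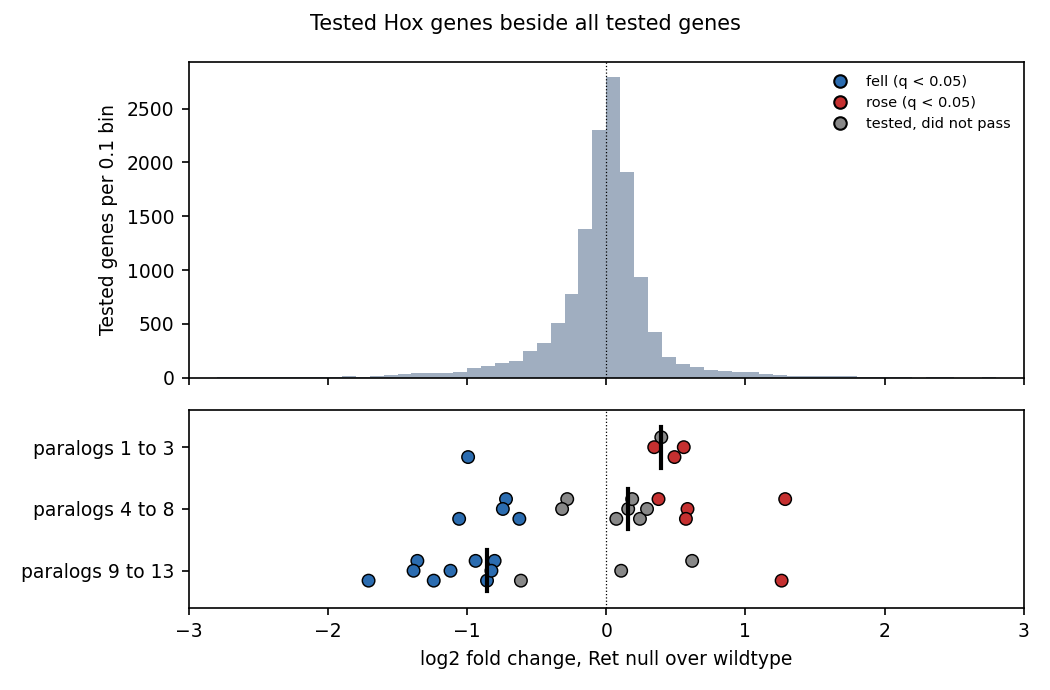
Number of tested genes per log2 fold change bin of 0.1 (upper panel) and the log2 fold changes of the tested Hox genes by paralog number (lower panel), with a black line at each median and points set apart vertically for legibility. Most tested genes lie near 0, the Hox medians are 0.40, 0.16 and -0.86 from top to bottom, and 78 tested genes lie outside the range drawn.

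The genes that act on the clusters were examined by lists chosen by name. The Cdx factors bind and activate Hox genes in the posterior embryo. Of the 5 tested members of the list of upstream regulators 1 rose and 1 fell, beside 5.69% and 8.88% of all tested genes. Cdx2, also the intestinal regulator, rose to 12.2 FPKM in Ret null gut against 6.17 FPKM in wildtype gut (0.98 ± 0.25), while Cdx1 and Cdx4 were under 1 FPKM and not tested. Gdf11, a signal that turns on posterior Hox genes, stood at 9.58 FPKM in Ret null and 9.40 FPKM in wildtype gut and did not pass.

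Retinoic acid activates genes at the low-numbered end of the clusters. Of 15 tested members of that pathway 4 fell and 3 rose, beside 8.88% and 5.69% of all tested genes, and their median log2 fold change was 0.04. The synthesis enzymes Aldh1a2 and Aldh1a1 rose by log2 fold changes of 0.42 and 0.41, and Aldh1a3 fell to 0.867 FPKM in Ret null gut against 2.64 FPKM in wildtype gut. The degrading enzyme Cyp26a1 rose to 1.67 FPKM in Ret null gut against 0.369 FPKM in wildtype gut, Cyp26b1 fell by 0.42, and the binding proteins Crabp1 and Crabp2 fell by 0.87 and 0.66. The authors' deposited table gives q as 0.00145 for Aldh1a2, 0.00924 for Aldh1a1, 0.00206 for Cyp26a1 and 0.00566 for Cyp26b1. Aldh1a2, Aldh1a1 and Cyp26b1 did not pass with the normal p. The receptors Rara, Rarb and Rarg did not pass.

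Of 9 tested Meis and Pbx family genes, which encode cofactors, 1 fell and 8 did not pass, a share near the 8.88% of all tested genes that fell. Meis1 stood at 88.8 FPKM in Ret null and 84.2 FPKM in wildtype gut and did not pass. Of 22 tested Polycomb and Trithorax genes, which keep Hox clusters silent or active, 1 fell and 21 did not pass. Kmt2a, the methyltransferase that maintains Hox expression, fell to 8.98 FPKM in Ret null gut against 11.4 FPKM in wildtype gut (-0.34 ± 0.18, q = 0.0121 in the authors' deposited table). It did not pass with the normal p.

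**Figure D4:**
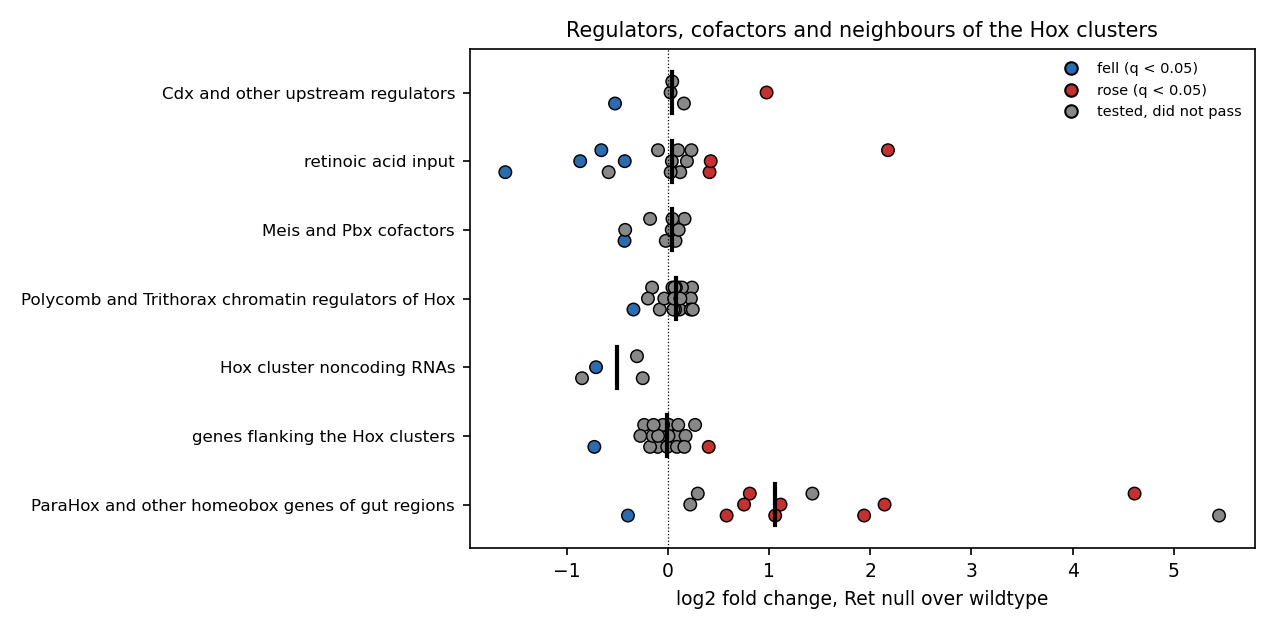
Log2 fold change, Ret null over wildtype, of the tested members of each list, with black lines at list medians and points set apart vertically for legibility. Most lists hold genes that regulate, assist, lie beside or are transcribed within the Hox clusters. The list of ParaHox and other genes of gut regions is outside the clusters and is described under Other observations. Blue points fell, red points rose and grey points did not pass, and the chromatin list lies within a narrower range than the retinoic acid list.

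Genes next to the clusters were called about as often as genes in general. Of 19 tested flanking genes 1 fell and 1 rose, beside 14.6% of all tested genes called in either direction, and the median log2 fold change was -0.01. Atf7, beside the Hoxc cluster, fell by 0.73, and Skap2, beside the Hoxa cluster, rose by 0.40 (q = 0.0164 in the authors' deposited table), and neither passed with the normal p. The homeobox genes Evx1 and Evx2, which lie at the high-numbered ends of the Hoxa and Hoxd clusters, were under 1 FPKM in both genotypes and not tested. Hibadh, beyond Evx1, and Mtx2 and Lnp, on either side of the Hoxd cluster, did not pass.

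Noncoding transcripts inside the clusters were measured for 4 tested genes. Hoxa11as, antisense to Hoxa11, fell to 6.03 FPKM in Ret null gut against 9.85 FPKM in wildtype gut (-0.71 ± 0.36, q = 0.0145 in the authors' deposited table) and did not pass with the normal p. Whether the libraries kept strand is not given in the sources used here, so reads of Hoxa11 and Hoxa11as may not be separable. Hotair was under 1 FPKM in both genotypes. The microRNA genes of the clusters were listed at 0 in both genotypes, in libraries selected for polyadenylated RNA. Those that lie beside or within a Hox gene that changed are shown. Mir615, within the span of Hoxc5, which did not pass, is left out. Mir196b lies between Hoxa9 and Hoxa10, Mir196a-1 beside Hoxb9, Mir196a-2 between Hoxc10 and Hoxc9, Mir10a beside Hoxb4 and Mir10b within the span of Hoxd4. From RefSeq (GRCm38.p6), with the seed (bases 2 to 8) in capitals, the mature sequences chosen in this way form a pair of seed families.
mmu-miR-196a-5p: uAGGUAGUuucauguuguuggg
mmu-miR-196b-5p: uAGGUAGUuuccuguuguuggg
mmu-miR-10a-5p: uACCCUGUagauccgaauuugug
mmu-miR-10b-5p: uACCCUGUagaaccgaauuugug

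Promoters were read for motifs of the factors above, with motifs chosen after the fold changes were known. RefSeq promoters (GRCm38.p6) were found for 22 Hox genes, with 24 start sites, and the 250 bases before each start were searched on both strands. The Cdx-type motif TTTATG was present at 20.8% of the Hox starts (Hoxa7, Hoxb8, Hoxd3, Hoxd4 and Hoxd11) and at 10.8% of 32851 starts of all genes. Of these genes Hoxb8 rose, Hoxd3, Hoxd4 and Hoxd11 fell and Hoxa7 did not pass, so that genes with the motif were found in both directions. The related letters TTTATTG occurred at 4.17% of Hox starts (Hoxb8) and 4.204% of all starts, and the Hox and Pbx type motif TGATNNAT at 16.7% of Hox starts and 7.68% of all starts. The retinoic acid receptor motif AGGTCA occurred at 25% of Hox starts and 14.02% of all starts. The TATA box TATAAA was found at 16.7% of Hox starts and 12.4% of all starts, and the CCAAT box CCAAT at 58.3% of Hox starts and 33.8% of all starts. The median GC content was 58.6% before Hox starts and 52.4% before all starts. A match is a description of letters and not a bound site. A riser with the motif, a faller with it and a faller without it are printed below, each 250 bases long and 5′ to 3′ on its own strand, with matches of either strand to the Cdx-type and the Hox and Pbx type letters in capitals.
Hoxb8 (rose), chr11:96281655-96281904, plus strand: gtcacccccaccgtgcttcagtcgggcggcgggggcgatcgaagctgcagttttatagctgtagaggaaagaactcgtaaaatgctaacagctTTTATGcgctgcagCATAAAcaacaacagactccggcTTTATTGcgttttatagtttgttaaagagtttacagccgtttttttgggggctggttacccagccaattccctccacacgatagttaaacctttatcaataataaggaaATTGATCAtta
Hoxd4 (fell), chr2:74721728-74721977, plus strand: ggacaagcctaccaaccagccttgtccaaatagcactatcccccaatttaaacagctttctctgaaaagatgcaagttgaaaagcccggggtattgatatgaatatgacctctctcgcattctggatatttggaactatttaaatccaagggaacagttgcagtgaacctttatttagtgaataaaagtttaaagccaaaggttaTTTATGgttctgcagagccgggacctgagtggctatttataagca
Hoxa9 (fell), chr6:52227371-52227620, minus strand: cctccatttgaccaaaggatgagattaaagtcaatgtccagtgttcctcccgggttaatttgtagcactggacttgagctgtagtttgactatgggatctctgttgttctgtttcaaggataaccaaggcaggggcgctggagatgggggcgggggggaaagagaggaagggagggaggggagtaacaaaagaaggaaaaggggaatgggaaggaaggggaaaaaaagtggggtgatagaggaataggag

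Markers of other tissues that express Hox genes were counted by lists chosen by name, and the lists did not all go in the same direction. Among all tested genes 8.88% fell and 5.69% rose, the shares to set beside each count in this paragraph and the next. In the somite and skeletal muscle list 8 of 11 tested markers fell and 1 rose, with sums of 29.5 FPKM in Ret null and 104 FPKM in wildtype gut over 15 genes. In the nephric and gonadal list 8 of 10 tested markers fell and 2 rose, with sums of 101 FPKM in Ret null and 119 FPKM in wildtype gut over 12 genes. In the limb bud and lateral plate list 5 of 11 fell and 3 rose, with sums of 127 FPKM in Ret null and 120 FPKM in wildtype gut. Of these sums Hand2 held 57.3 FPKM in Ret null and 46.4 FPKM in wildtype gut. Pitx1 held 34.2 FPKM in Ret null and 17.3 FPKM in wildtype gut. In the enteric neural crest and neuron list 13 of 16 fell and 1 rose, with sums of 118 FPKM in Ret null and 178 FPKM in wildtype gut. None of these 4 lists had a member at 0 in either genotype. Of the spinal cord list 5 of 12 markers were tested, 1 fell and 3 rose, with sums of 19.2 FPKM in Ret null and 11.3 FPKM in wildtype gut. The risers were Nkx6-1, Isl2 and Mnx1, and the faller was Irx3 (q = 0.00145 for Mnx1 and for Irx3 in the authors' deposited table). Irx3 did not pass with the normal p. Olig2, which defines motor neuron progenitors, was at 0 in both genotypes. Sox1 and Lhx3 were under 1 FPKM in both and not tested, so the list does not show spinal cord tissue.

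Markers of the front of the digestive tract stood higher. In the hepatic list 11 of 11 markers rose, with sums of 319 FPKM in Ret null and 23.9 FPKM in wildtype gut. In the stomach and anterior mesenchyme list 8 of 9 rose, with sums of 355 FPKM in Ret null and 158 FPKM in wildtype gut. In the hindgut, cloaca and tail list 2 of 6 tested markers rose and 1 fell, with sums of 102 FPKM in Ret null and 93.1 FPKM in wildtype gut, and Cdx4 was at 0 in Ret null gut. Of gut mesenchyme and smooth muscle markers 9 of 12 rose (824 FPKM in Ret null and 420.3 FPKM in wildtype gut), and of epithelial markers 12 of 13 rose (356 FPKM in Ret null and 166 FPKM in wildtype gut). Of the lung and thyroid list 4 of 6 tested fell (6.64 FPKM in Ret null and 13.5 FPKM in wildtype gut). They were Irx1, Irx2, Tbx4, which is also in the limb list, and Pax8, which is also in the nephric list. The authors' deposited table gives q as 0.00837 for Irx2, 0.0109 for Tbx4 and 0.00468 for Pax8. Irx2, Tbx4 and Pax8 did not pass with the normal p. Nkx2-1 and Sftpc of that list were under 1 FPKM in both genotypes and not tested, so it does not show lung or thyroid tissue. Of blood and endothelial markers 5 of 11 fell and 2 rose (3933 FPKM in Ret null and 6383 FPKM in wildtype gut). Some other markers also stand in several lists and are counted in each. Among them Hand2 is in the limb and the enteric neural crest lists, and Nkx3-2 in the somite and the stomach lists. Six2 is in the nephric and the stomach lists, and Isl1 in the hindgut and the stomach lists. The part of these tissues in the Hox values was not tested.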

How the data were processed

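Gut RNA of 3 Ret null and 3 wildtype samples was selected for polyadenylated RNA with oligo-dT beads for Illumina TruSeq libraries, as the labels' protocols say. The submitters' processing notes name Picard, TopHat2, Cufflinks and Cuffdiff, with mm10 as the build. No version or setting is given in the sources used here. The deposited table has the layout of Cuffdiff's gene test. Its FPKM values, 1 per genotype, were made by the authors from the samples of that genotype. Per the file headers, the p-value, the q-value and the test statistic (a score) come from the authors' test. Of 23234 lines, 1 held 2 records run together and was left out. Starts were raised by 1 to count from 1, and 12 of the 38 Hox lines then had exactly the RefSeq start and end (GRCm38.p6, of which mm10 is another name).

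The 2 FPKM values gave each log2 fold change, with no pseudocount, and the implied standard error is the log2 fold change divided by the test statistic. Its median over tested genes was 0.39 for mean levels of 1 to 5 FPKM and 0.22 for 5 to 20 FPKM. With 1 value per genotype no test over samples could be run. The test is the authors' q under 0.05, adjusted over all tested lines. The deposited q-values lie within 5.94e-05 of the deposited p-values adjusted by Benjamini and Hochberg's method. The labels do not say whether samples came from separate litters, and the settings of the authors' test are not given. What spread between samples or litters the p-values measure is therefore not known. Members and lists, and the promoter motifs, were chosen with earlier results of these data known. All Hox members are named. Of pathway lists, members that passed are named, or the most abundant where none passed, except some that are not reported here, and other named genes were chosen after their values were seen. Alternatives were other q thresholds, a p from the test statistic, minimum levels, a minimum fold, pseudocounts, centring and the choice of lines. The adjustment was tested on simulated data with p-values from a normal distribution. The implied error was not tested by it, because the simulated statistic was made from that error. Python 3.11.15, pandas 2.3.3, SciPy 1.17.1 and matplotlib 3.10.9 were used.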

Additional observations from a re-analysis of the deposited data

How the results depend on the processing

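Adding 0.1 or 1 FPKM, or centring on the median of all tested genes, cannot alter the authors' q, so these settings do not test the calls, and centring turned no sign among the 33 tested Hox genes. With q under 0.1 as the threshold all 33 kept their calls. At q under 0.01, 4 of them no longer passed, and by the normal p 9 no longer passed. The falls were the steadier side, and the rises depended on the threshold. Against 8 members that rose, 4 did at q under 0.01 (1 in Hoxa, 2 in Hoxb, 1 among paralogs 1 to 3 and 2 among 4 to 8). With the normal p 1 did (0 in Hoxa, 0 in Hoxb, 0 among paralogs 1 to 3 and 0 among 4 to 8). At a minimum change of 1.5-fold 2 did (1 in Hoxa, 0 in Hoxb, 0 among paralogs 1 to 3 and 1 among 4 to 8). The 12 lines with exactly the annotated coordinates, a smaller set, held 4 that fell, against 14, and 1 that rose. The falls there were 1 in Hoxa, 0 in Hoxb, 1 in Hoxc and 2 in Hoxd, with 0 among paralogs 1 to 3, 0 among 4 to 8 and 4 among 9 to 13, and the rises were 0 in Hoxa, 1 in Hoxb and 0 in Hoxd, with 0 among paralogs 1 to 3, 1 among 4 to 8 and 0 among 9 to 13. Without lines that share a span, an alternative chosen after seeing the data, 1 Hoxa gene rose, against 3, 0 of paralogs 1 to 3 fell and 2 of paralogs 4 to 8 rose. Apart from these smaller sets of lines, the causes of the changes were not tested. No paired analysis was possible because the table holds 1 value per genotype and no value per sample, and for the same reason no replicate could be left out.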

Other observations

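Transcription factors outside the Hox clusters that mark regions of the gut, most of them homeobox genes, were mostly higher in Ret null gut. Of 13 tested members of a list chosen by name 8 rose and 1 fell, beside 5.69% and 8.88% of all tested genes. Their median log2 fold change was 1.06. Tlx1, which the spleen needs to form, rose to 4.95 FPKM in Ret null gut against 2.29 FPKM in wildtype gut (1.11 ± 0.37). Six2, expressed around the pylorus, rose to 27.4 FPKM in Ret null gut against 13.1 FPKM in wildtype gut (1.06 ± 0.19). Barx1, a regulator of stomach mesenchyme, rose by a log2 fold change of 4.61, Nkx2-5 by 2.14, Sox2 of foregut epithelium by 1.94, Nkx3-2 by 0.81, Isl1 by 0.75 and Nkx2-3 by 0.58. Of these risers, Tlx1 and Nkx3-2 did not pass with the normal p. Pdx1, which marks the duodenum and pancreas, stood at 2.34 FPKM in Ret null and 0.870 FPKM in wildtype gut (1.43 ± 0.91) and did not pass. The ParaHox gene Gsx1 was at 0 in both genotypes. Its relative Gsx2 was at 0 in Ret null and 0.0224 FPKM in wildtype gut, and neither was tested.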
